A study of Mus musculus with 2 samples.

Results

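The axon guidance genes described here are the ligands and receptors of the semaphorin, ephrin, Slit and netrin systems. They were chosen by symbol among the autosomal protein-coding genes of the GENCODE M21 annotation, and 66 of 20722 such genes matched. The set held 20 semaphorins, 9 plexins and neuropilins, 14 Eph receptors, 7 ephrins, 7 Slits and Robos, and 9 netrins, Unc5 receptors and Dcc. No measured value entered the choice.

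Accessible chromatin was mapped by DNase-seq, in which DNase I cuts nuclear DNA where nucleosomes leave it exposed and the cut ends are sequenced. The material was hippocampus, which the labels call a layer without saying which, from male B6CASTF1/J mice aged 2 months. B6CASTF1/J is the first-generation cross of C57BL/6J and CAST/EiJ, and both parental alleles were placed on the single assembly mm10 (GRCm38). The series held 1 group of 2 untreated samples, biological replicates 1 and 2, taken as separate biosamples with the same donor entry. The labels do not say whether these were separate animals, so the spread between them may be technical, and with no second group no test between conditions exists.

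Semaphorins, ephrins, Slits and netrins are cues that growing axons read as attraction or repulsion. Semaphorins act mainly through plexins, with neuropilins as co-receptors for the secreted class 3 members. Ephrins are membrane-bound and signal through Eph receptor tyrosine kinases, Slits repel through Robo receptors, and netrins attract through Dcc and repel through Unc5 receptors. In the adult hippocampus many of these proteins act at synapses, where they bear on spine shape and on the layering of inputs such as the mossy fibres.

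Replicate 1 held 132685 peaks and 255536 footprints, and replicate 2 held 59880 peaks and 111355 footprints, footprints being short protected stretches inside accessible DNA. Peaks of both replicates overlapped in 50780 shared peaks. A promoter is called open where a shared peak lies within 500 bp of a protein-coding start. Peak height is the authors' signal value, taken in each replicate as its highest peak over the shared peak. How heights were scaled and how deep each library was are not stated in the labels or files, so heights are compared with other genes within a replicate. The tissue is a mixture, so fewer cells with an accessible site and less accessibility per cell cannot be told apart. Of 25 marker genes of hippocampal and other cell types, 8 had open promoters (32.0%), against 58.2% of all autosomal protein-coding genes. For excitatory neurons 3 of 4 were open (Camk2a, Neurod6 and Zbtb18), and for hippocampal fields 2 of 3 (Pcp4 and Wfs1). It was 1 of 3 each for interneurons (Gad1), astrocytes (Slc1a2) and oligodendrocytes (Mbp), and 0 of 3 each for microglia, endothelium and other tissues. A promoter peak in replicate 1 only was found at Slc17a7 (excitatory neurons), Prox1 (hippocampal fields), Aqp4 (astrocytes), Mog (oligodendrocytes), and Csf1r and Cx3cr1 (microglia). Gad2 (interneurons) and Flt1 (endothelium) each had promoter peaks in both replicates that did not overlap, so neither promoter counted as open. Dense runs of low peaks set replicate 1 apart: 134 windows of 20 kb held 20 or more of its peaks, against 9 windows in replicate 2. Only the Robo3 gene among the 66 touched such a window.

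The sequences below come from the GRCm38 reference and show the 250 bases before the start of 4 promoters that were among the 3 highest of their family and held most footprints of both replicates within these 250 bases. Capitals mark bases inside footprints of both replicates, and each sequence reads 5′ to 3′ on the strand of its gene. The stretches lie at chr16:21204505-21204754 (plus strand) for Ephb3, chr8:8661243-8661492 (minus strand) for Efnb2, chr4:28812881-28813130 (plus strand) for Epha7 and chr3:95160251-95160500 (plus strand) for Sema6c.
Ephb3: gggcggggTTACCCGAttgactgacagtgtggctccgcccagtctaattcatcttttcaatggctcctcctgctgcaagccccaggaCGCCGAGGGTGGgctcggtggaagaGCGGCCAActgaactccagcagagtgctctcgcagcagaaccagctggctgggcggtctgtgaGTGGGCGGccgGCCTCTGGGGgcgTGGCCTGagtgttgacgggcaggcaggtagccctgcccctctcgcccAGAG
Efnb2: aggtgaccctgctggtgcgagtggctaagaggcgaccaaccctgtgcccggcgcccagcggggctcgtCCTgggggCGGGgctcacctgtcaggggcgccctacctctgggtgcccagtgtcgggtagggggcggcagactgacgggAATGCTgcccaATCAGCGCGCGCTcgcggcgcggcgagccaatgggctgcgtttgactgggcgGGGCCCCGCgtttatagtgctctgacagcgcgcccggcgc
Epha7: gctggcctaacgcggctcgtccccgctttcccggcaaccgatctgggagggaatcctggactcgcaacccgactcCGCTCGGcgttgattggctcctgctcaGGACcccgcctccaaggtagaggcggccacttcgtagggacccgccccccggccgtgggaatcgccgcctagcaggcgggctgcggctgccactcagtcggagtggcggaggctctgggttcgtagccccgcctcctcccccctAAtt
Sema6c: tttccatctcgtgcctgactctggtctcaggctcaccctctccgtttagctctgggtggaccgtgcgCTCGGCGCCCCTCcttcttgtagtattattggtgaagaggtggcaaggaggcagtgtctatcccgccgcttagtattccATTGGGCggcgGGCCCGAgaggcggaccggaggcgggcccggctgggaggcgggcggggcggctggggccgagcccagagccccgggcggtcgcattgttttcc
The stretch of Ephb3 held 7 such footprints over 57 bases, and that of Efnb2 held 5 over 35 bases. Those of Epha7 and Sema6c held 3 each, over 13 and 27 bases. All 4 were rich in G and C, at 65.6% for Ephb3, 72.0% for Efnb2, 69.2% for Epha7 and 66.4% for Sema6c. The letters GGGCGG of the GC box, on either strand, occurred 4 times before Ephb3, 3 times before Efnb2, once before Epha7 and 4 times before Sema6c. A footprint contained 1 of the 4 GC boxes of Ephb3 whole.

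The next 4 sequences are distal shared peaks, over 2500 bp from every protein-coding start. They are the highest of the members' distal peaks that lay outside exons and held a footprint of both replicates, and they are written on the plus strand. The peak of Sema3b lies at chr9:107612741-107612900, that of Unc5b at chr10:60760481-60760600, that of Ephb2 at chr4:136678581-136678740 and that of Sema4a at chr3:88467241-88467400.
Sema3b: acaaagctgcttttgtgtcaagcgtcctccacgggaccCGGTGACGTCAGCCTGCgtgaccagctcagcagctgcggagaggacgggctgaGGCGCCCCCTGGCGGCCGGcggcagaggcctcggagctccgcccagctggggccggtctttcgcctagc
Unc5b: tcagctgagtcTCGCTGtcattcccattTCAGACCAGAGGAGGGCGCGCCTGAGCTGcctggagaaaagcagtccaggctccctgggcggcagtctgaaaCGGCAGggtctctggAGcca
Ephb2: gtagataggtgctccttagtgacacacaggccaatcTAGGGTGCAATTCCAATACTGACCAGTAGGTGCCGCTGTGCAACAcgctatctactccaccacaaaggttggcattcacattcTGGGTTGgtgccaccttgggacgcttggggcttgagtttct
Sema4a: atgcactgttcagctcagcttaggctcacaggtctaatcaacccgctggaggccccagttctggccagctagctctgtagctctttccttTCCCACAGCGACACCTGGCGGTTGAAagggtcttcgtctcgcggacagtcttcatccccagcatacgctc
The Sema3b peak carried the letters TGACGTCA of the cAMP response element and, on the reverse strand, the letters AGGGGGCGC of the CTCF core, each whole inside a footprint of both replicates. Neither run of letters occurred exactly in the Unc5b, Ephb2 or Sema4a peaks. Inexact matches were not searched, so this does not show that these peaks lack related sites. A match describes the letters only.

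Most axon guidance promoters were open in the adult hippocampus. In both replicates 52 of 66 (78.8%) were open, while 58.2% of all autosomal protein-coding genes were. In replicate 1 alone 60 members had a promoter peak (90.9%), against 64.5% of the other genes, and in replicate 2 alone 53 had one (80.3%), against 59.6%. Receptors were open at 27 of 32 promoters and ligands at 25 of 34. The members were long, with a median length of 62.8 kb against 17.5 kb for the other genes, so shares were also taken within length classes. Under 50 kb 19 of 32 members were open (59.4%), against 51.8% of the other genes. Between 50 and 150 kb 9 of 10 were open, against 77.8%, and over 150 kb 24 of 24, against 83.6%. The open share of the members was above that of the other genes in each class, and these shares are descriptions without a test.

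**Figure D1:**
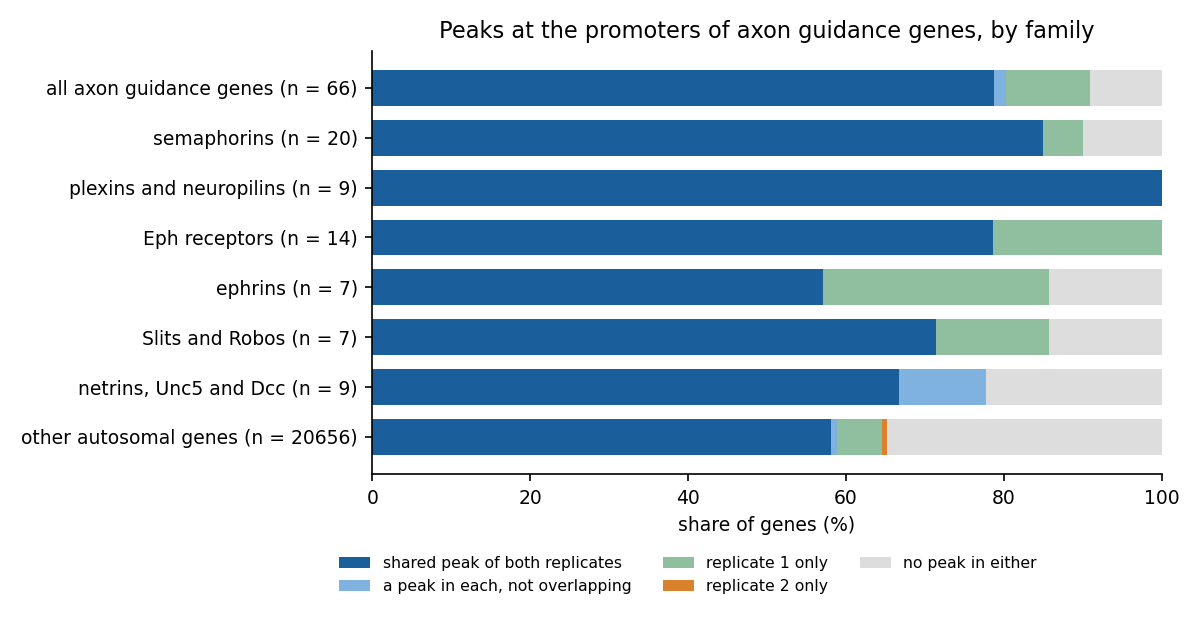
Share of genes (%) by what lay at their promoters, for all 66 axon guidance genes, for each family and for the 20656 other autosomal genes; colours give shared peaks of both replicates, peaks that did not overlap, peaks of a single replicate, or no peak. All 9 plexins and neuropilins were open, against 4 of 7 ephrins and 58.2% of the other genes.

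Although open more often, the members' promoters were lower. The median height of open members was 2.10 in replicate 1 and 1.84 in replicate 2, against 4.17 and 2.52 for the 12012 open promoters of other genes. Only 6 members in replicate 1 and 9 in replicate 2 exceeded those medians of the other genes, and 5 did so in both: Ephb3, Epha7, Efnb2, Sema4b and Sema4c. In replicate 1 the members' median was lower in every length class, at 2.14 against 4.47 under 50 kb, 2.70 against 3.97 from 50 to 150 kb, and 1.61 against 2.36 over 150 kb. In replicate 2 the medians were 1.94 against 2.62 and 2.05 against 2.46 in the first 2 classes, and over 150 kb they were 1.83 and 1.84.

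**Figure D2:**
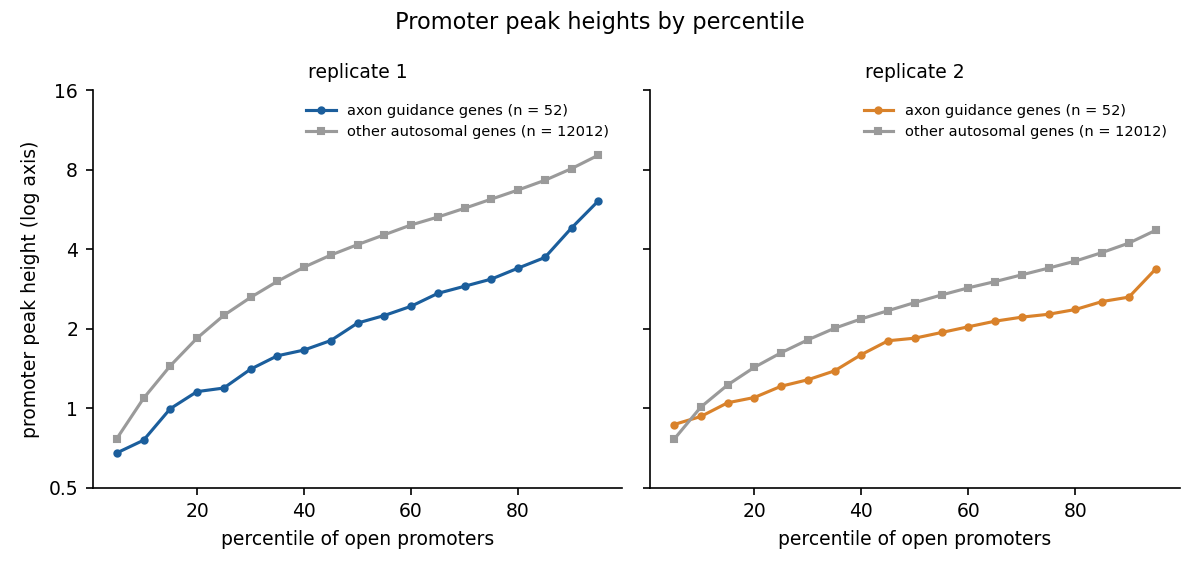
Promoter peak height (authors' signal, log axis) at percentiles 5 to 95 of open promoters, for 52 axon guidance genes and 12012 other genes, in replicate 1 (left) and replicate 2 (right). The members lie below the other genes at the median of both replicates, 2.10 against 4.17 and 1.84 against 2.52, and the curves cross at the low end of replicate 2.

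Among the ligands, the semaphorins were open at 17 of 20 promoters. Class 3, the secreted semaphorins, was open at 5 of 7 with medians of 0.834 in replicate 1 and 1.28 in replicate 2, and class 6, which spans the membrane, at 4 of 4 with medians of 3.17 and 2.20. The highest were the membrane-spanning Sema4c, a ligand of plexin B2, with 5.97 in replicate 1 and 3.89 in replicate 2, and Sema4b with 6.28 and 3.43. Sema6c came next by the mean of both, with 3.56 and 2.29. By the mean of both replicates the lowest open semaphorin was Sema3f, the secreted ligand of neuropilin-2 that repels hippocampal axons, with 0.733 and 0.839. Both replicates thus placed Sema4c and Sema4b high and Sema3f near the bottom.

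The 4 class 3 genes on chromosome 5, Sema3a, Sema3c, Sema3d and Sema3e, were all open and mostly low. Sema3a, the prototype collapsing factor for growth cones, had 0.663 in replicate 1 and 1.40 in replicate 2. Sema3c had 0.834 and 0.914, Sema3d 1.83 and 1.66, and Sema3e, a ligand of plexin D1, 1.09 and 1.28. Sema3b and Sema3g, also secreted, had no promoter peak in either replicate, and Sema4g had a peak of 0.690 in replicate 1 only.

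The ephrins were split. Efnb2, a membrane-spanning ephrin known from arteries and from excitatory synapses, had the highest promoter of the family at 6.37 in replicate 1 and 4.49 in replicate 2, the 76.9th and 93.0th percentile of open promoters. Efna3, the glycosylphosphatidylinositol-anchored ephrin of astrocytes that meets EphA4 on dendritic spines, had 4.04 and 2.56, and Efna1 had 2.91 and 2.19. Efna5, known for topographic maps, was the lowest open ephrin with 0.749 and 1.02. The other 3 ephrins had no shared promoter peak: Efna2 had a peak of 1.60 and Efnb3 of 1.16 in replicate 1 only, and Efna4 had none.

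All 3 Slits were open and modest in height. Slit1 had 2.56 in replicate 1 and 1.23 in replicate 2, Slit2 had 1.57 and 0.925, and Slit3 had 1.18 and 0.990. The netrins were the least open ligands, at 1 of 4. Ntn1, the founding attractant of the floor plate, was the lowest of all open members in replicate 2, with 0.658 in replicate 1 and 0.516 in replicate 2, the 3.85th and 1.06th percentile. Its starts fell in 2 regions over 2500 bp apart. The shared peak lay at the inner region, at chr11:68386760-68386778, and the region at the 5′ end of the gene (68400823) had none. Ntn3 had a peak in each replicate, 0.866 and 1.27, that did not overlap. Ntn4, a netrin of basement membranes, and Ntn5 had no promoter peak.

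Among the receptors, all 7 plexins and both neuropilins were open. Nrp2, the neuropilin that binds Sema3f, was highest with 3.44 in replicate 1 and 2.43 in replicate 2. Plxna2, a receptor of class 6 semaphorins that acts in mossy fibre layering, had 3.08 and 2.22, and Plxna4 had 2.25 and 1.85. Plxna1 was lowest with 1.02 and 1.06. The family was narrow in range compared with the semaphorins and Eph receptors, as the plot of promoter heights by family shows.

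**Figure D3:**
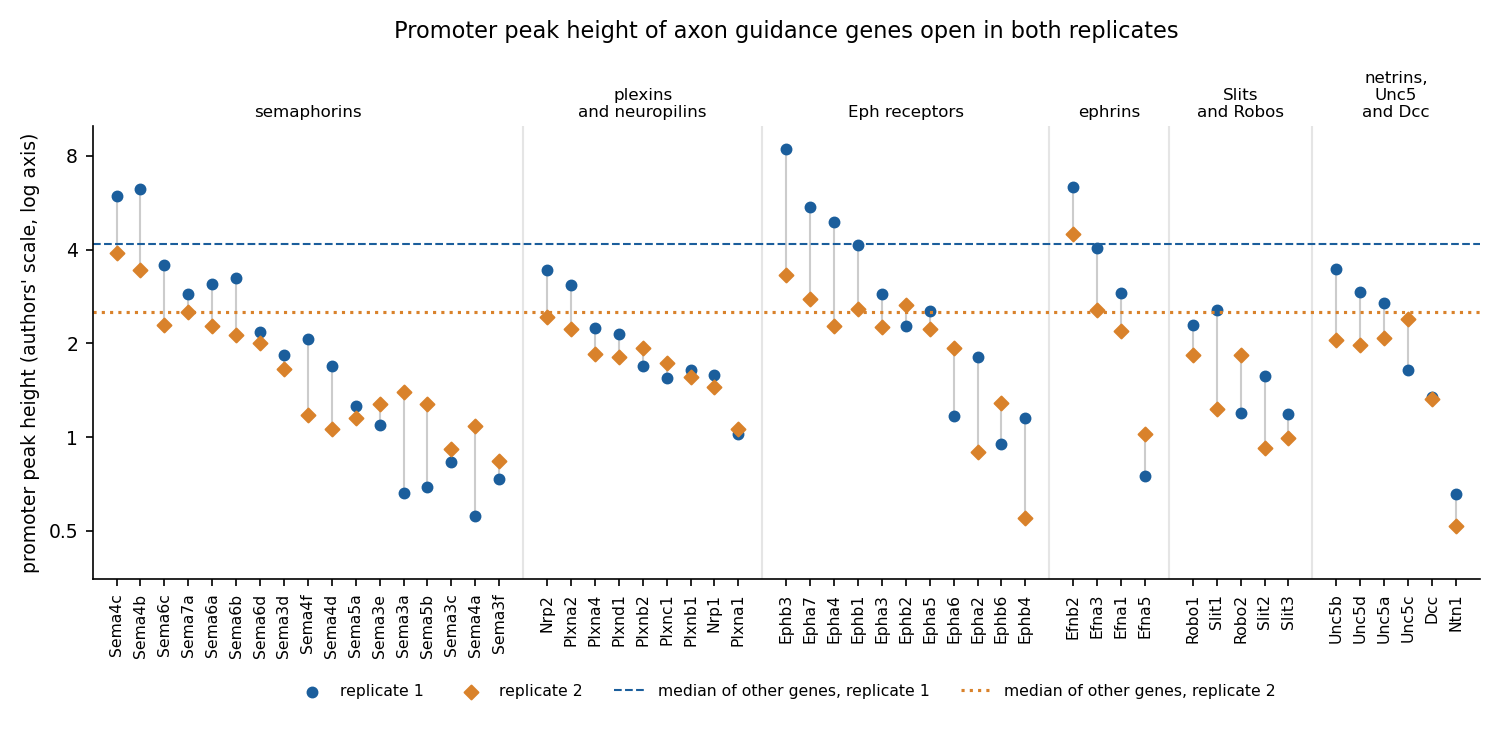
Promoter peak height (authors' signal, log axis) of the 52 axon guidance genes open in both replicates, by family; circles are replicate 1, diamonds replicate 2, and the lines give the medians of other open genes, 4.17 in replicate 1 (dashed) and 2.52 in replicate 2 (dotted). Ephb3 is highest in replicate 1 at 8.41 and Efnb2 in replicate 2 at 4.49.

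The Eph receptors were open at 11 of 14 promoters, with EphB at 5 of 5 and EphA at 6 of 9. Ephb3 had the highest promoter of all members in replicate 1, 8.41, and 3.32 in replicate 2, the 91.6th and 73.2nd percentile of open promoters. Epha7 had 5.47 and 2.78, and Epha4, a receptor on the dendritic spines of hippocampal neurons, had 4.90 and 2.28. Ephb4, best known from veins, was the lowest open Eph gene by the mean of both replicates, with 1.16 and 0.549. Epha1 (1.93), Epha8 (0.503) and Epha10 (0.422), the last a family member without kinase activity, had a promoter peak in replicate 1 only.

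Robo1 and Robo2, the main Slit receptors of the brain, were open with 2.29 and 1.20 in replicate 1 and 1.84 and 1.83 in replicate 2. Only 1 of 3 start regions of Robo1 was open. Its shared peak, at chr16:72663041-72663260, lay inside the gene, whose 5′ end is at 72308306. Robo4, a Robo of endothelial cells, had no promoter peak in either replicate. Robo3, which governs midline crossing of commissural axons, had a promoter peak of 0.417 in replicate 1 only. The netrin receptors were all open. Unc5b had 3.47 in replicate 1 and 2.05 in replicate 2, Unc5d 2.93 and 1.98, Unc5a 2.70 and 2.09, and Unc5c 1.64 and 2.39. Dcc, the attractive netrin receptor, had 1.35 in replicate 1 and 1.32 in replicate 2. Its shared promoter peak was only 20 bp long, and those of Ntn1 and Ephb4 were 19 bp and 26 bp.

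At Robo3 replicate 1 stood apart from replicate 2 over much of the gene. The gene body held 22 peaks of replicate 1, with a median height of 0.217, and 2 of replicate 2. In the promoter windows 1912 of 2002 bases were listed below the FDR limit of 0.05 in replicate 1, with a lowest FDR of 2.0e-129, against 49 bases and a lowest FDR of 2.8e-05 in replicate 2. A shared peak at chr9:37430661-37430860 with 5.36 in replicate 1 and 3.17 in replicate 2 lay 527 bp from a Robo3 start, just beyond the 500 bp of a promoter. The part of the dense run in these values was not tested. Without Robo3 the open count was 52 of 65 (80.0%).

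Of the 14 members without an open promoter, 9 had promoter bases below the FDR limit in replicate 1 and 3 in replicate 2, 64.3% and 21.4%. The shares were 17.6% and 6.18% for other genes without an open promoter. Near misses in distance were few: besides Robo3, Epha10 had a shared peak 722 bp from a start (2.57 in replicate 1 and 1.53 in replicate 2) and Ntn5 had a shared peak 1002 bp away (4.24 and 1.64). These 3 are the members that gained an open promoter when the window was set at 2000 bp. Epha8 and Ntn4 had no shared peak within the gene and 10 kb on either side.

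At 15 of 52 open members (28.8%) the value was higher in replicate 2, against 12.7% of other open genes. All 15 were low in replicate 1, at 2.28 (Ephb2) or less, where the median of other open genes was 4.17. The part of low height in this share was not tested. Within length classes this was so at 26.3% of open members under 50 kb, against 10.05% of other genes, at 1 of 9 from 50 to 150 kb (11.1%), against 14.7%, and at 37.5% over 150 kb, against 27.5%. Sema3a, Sema4a and Sema5b were among the 15, with 0.663, 0.556 and 0.690 in replicate 1 and 1.40, 1.09 and 1.28 in replicate 2. Since the scaling is not known, this compares the members with the other genes and not the replicates with each other.

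Footprints shared by both replicates were less frequent in the open promoters of members than in those of other genes. A footprint of both replicates lay in the promoter windows of 35 of 66 members (53.0%), while 48.0% of all autosomal protein-coding genes had one. Among open promoters the share was 67.3% for members and 82.2% for other genes. Single replicates differed from this: open promoters held a median of 5 footprints in members and 5 in other genes in replicate 1, and 5 and 4 in replicate 2. Over all genes, a footprint of replicate 1 lay in the promoter windows of 89.4% of members, against 62.6% of other genes, and one of replicate 2 in 77.3%, against 57.0%. Ephb3 held 9 such footprints, Efnb2 held 7, Sema4c held 6, and Plxna2 and Sema4b held 4 each. Members with none included both neuropilins, Dcc and Ntn1, where footprints of each replicate lay in the windows without overlapping. The members' lower heights go with their lower share of shared footprints, and the part of height in that share was not tested.

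The promoters were rich in CpG and stood alone. Over 300 bases, from 250 before to 50 after the start, the median G and C content was 66.7% in members and 57.0% in other genes, and the median number of CpG dinucleotides was 23 against 14. Among open promoters these were 67.0% against 62.0% and 24.5 against 22. No member had the start of another protein-coding gene within 1000 bp, whereas 13.2% of the other genes had one, and 2403 of the 12012 with open promoters.

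Of 11 motifs searched on both strands in these 300 bases, the GC box GGGCGG occurred in 42 of 52 open member promoters (80.8%), against 68.3% of other open promoters. The ETS letters CCGGAAGT occurred in none of the 52, against 8.76% of the others. The CTCF core AGGGGGCGC occurred in 5 (9.62%, against 2.79%), and the EGR letters GCGTGGGCG in 3 (5.77%, against 1.30%). The EGR letters followed by a G contain the GC box. The E-box CACGTG occurred in 2 (3.85%, against 10.3%), the neuronal E-box CAGATG in 2 (3.85%, against 10.8%), and the AP-1, cAMP response element and NRF1 letters (TGACTCA, TGACGTCA and GCGCATGCG) in 1 each, against 2.65%, 3.97% and 4.00%. The MEF2 letters CTATTTATA and the RFX letters GTTGCCATG occurred in none, against 0.266% and 0.857%. The part of the members' higher G and C content (67.0% against 62.0% at open promoters) in these shares was not tested.

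Away from promoters, most members carried distal peaks. At least 1 distal shared peak, in the gene or within 10 kb of it, belonged to 48 of 66 members (72.7%), while 41.8% of all autosomal protein-coding genes had one. There were 191 distal regions, giving 192 pairs of gene and region. Of these pairs 146 lay in introns of the member, 19 in its exons, 22 in flanks and 5 in another protein-coding gene. For 157 of 192 the nearest protein-coding start was the member's own. Within length classes 17 of 32 members under 50 kb had a distal peak (53.1%), against 32.8% of the other genes, 9 of 10 from 50 to 150 kb, against 64.0%, and 22 of 24 over 150 kb (91.7%), against 89.5%. Per 100 kb the median density over 150 kb was 1.11 in members and 1.05 in other genes. Among the longest genes the members' distal density was therefore close to that of other genes, and the gap lay in the shorter classes.

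**Figure D4:**
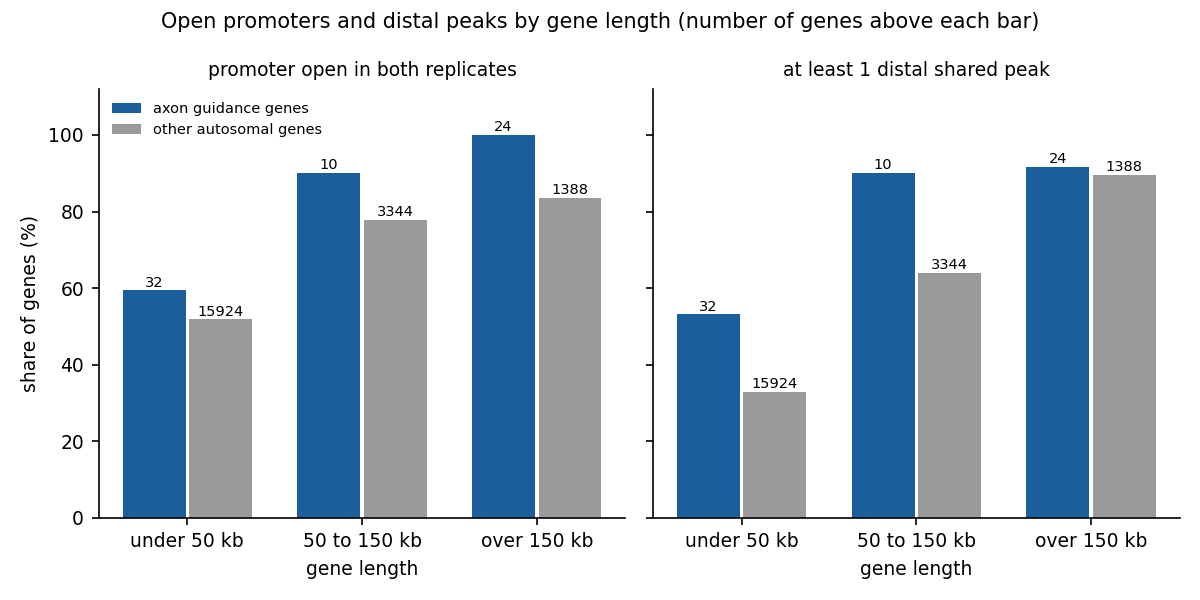
Share of genes (%) with a promoter open in both replicates (left) and with at least 1 distal shared peak (right), by gene length, for axon guidance genes beside other autosomal genes, with the number of genes above each bar. Over 150 kb the distal shares are 91.7% and 89.5%, and under 50 kb they are 53.1% and 32.8%.

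The genes with most distal peaks were Ephb2 and Slit3 with 15 each, Robo1 with 12, Dcc and Ephb1 with 10, Plxna4 with 9, Sema6d with 8, and Epha6 and Slit1 with 7. Nrp2 had 6, as did Unc5b and Sema4d. All 15 of Slit3, 10 of Dcc and 10 of Ephb1 lay in introns. Heights separated these genes: the distal peaks of Ephb2, a receptor that binds NMDA receptors at synapses, reached 6.50 in replicate 1 and 3.24 in replicate 2, whereas those of Dcc reached 1.13 and 0.710. A footprint of both replicates lay in 11 of 15 distal peaks of Ephb2, 5 of 15 of Slit3 and 1 of 10 of Dcc.

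**Figure D5:**
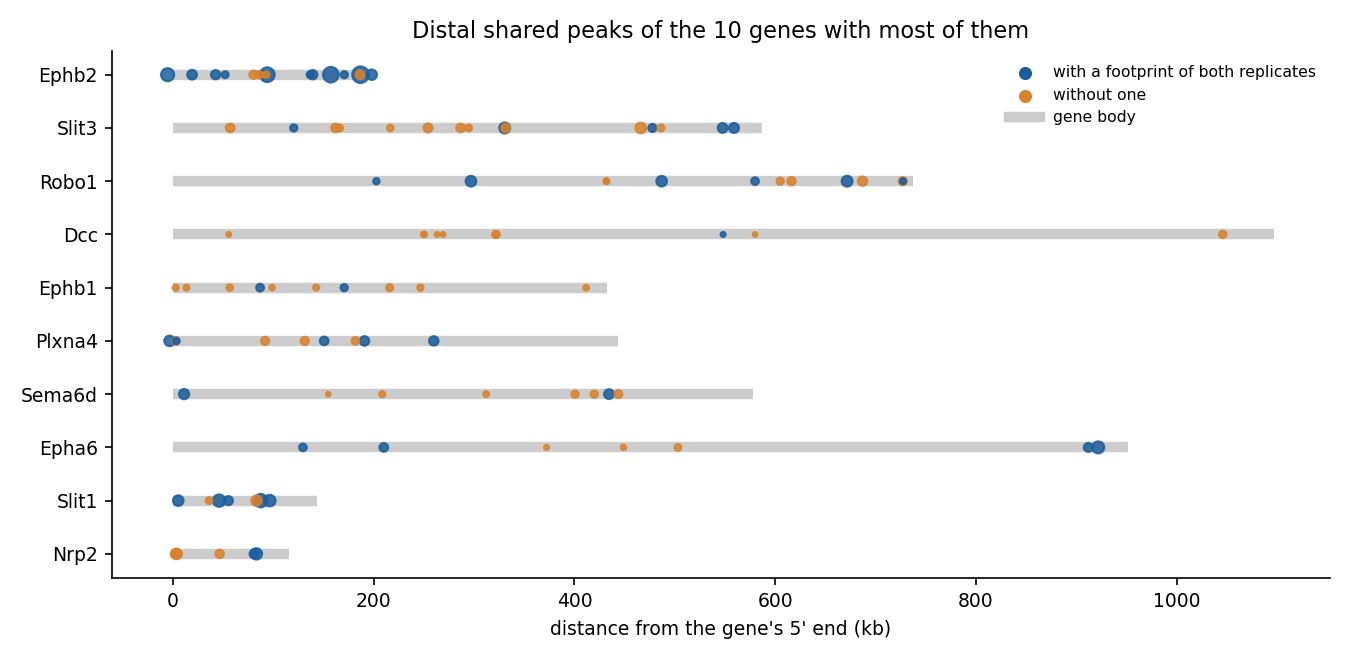
Distal shared peaks of the 10 axon guidance genes with most of them, by distance from the 5′ end of the gene (kb); grey bars are gene bodies, point area is proportional to mean height, and colour tells whether a footprint of both replicates lies in the peak. The 15 peaks of Ephb2 lie in or near a gene of 188 kb, while the 10 of Dcc are spread over 1097 kb.

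By density the leading genes were Efnb3 with 7.66 distal peaks per 100 kb, Ephb2 with 7.20, Sema7a with 7.02, Unc5b with 6.74 and Sema4a with 6.63. Among their distal peaks, both of Efnb3 and some of Ephb2, Unc5b and Sema4a lay nearer another gene's protein-coding start. Efnb3 rested on 2 regions at 1.72 and 1.36 in replicate 1 and 1.56 and 1.14 in replicate 2, both past its 3′ end, which counted as 1 when regions with gaps of up to 300 bp were joined. Sema7a, a lipid-anchored semaphorin, had 3 flanking peaks of up to 3.78 and 2.07. At the other end Sema3a (477 kb), Sema3c (156 kb) and Ntn4 (107 kb) had no distal shared peak despite their length. In replicate 1 alone Sema3a had 13 distal peaks, Ntn4 had 4 and Sema3c had 1. Replicate 2 alone gave 1 for Sema3a, 1 for Ntn4 and none for Sema3c.

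The highest distal peak of any member stood 3.6 kb before the 5′ end of Sema3b, at chr9:107612741-107612900, with 10.5 in replicate 1 and 4.32 in replicate 2, the 99.9th and 99.6th percentile of distal shared peaks. The start of a Gnai2 transcript not counted as protein-coding was nearer, 3227 bp from the centre of this peak. The second, in an exon of Sema3b at chr9:107602121-107602320, had 6.52 and 3.26. Sema3b thus had no promoter peak but held the top pair of distal peaks. Efna4 and Sema3g likewise had no promoter peak, and had distal peaks of 4.87 and 1.56 in the neighbouring gene Adam15 (Efna4) and of 3.66 and 1.09 beyond the 3′ end (Sema3g). Ntn3, whose promoter peaks did not overlap, had a distal peak of 4.41 and 1.68 at 2.85 kb before its start. Other distal peaks among the 10 highest were an exonic and 2 intronic peaks of Ephb2, with 6.50 and 2.58, 5.17 and 2.86, and 3.96 and 3.24, and an exonic peak of Sema4f with 3.47 and 2.56. The Unc5b peak (5.78 and 2.45) lay past the 3′ end of the gene. Its centre was 7746 bp from a Slc29a3 start and 70.8 kb from the nearest Unc5b start. The Sema4a peak (5.27 and 2.43) lay 6.1 kb before the 5′ end of Sema4a. Of the 10 highest, 4 lay within 500 bp of the start of some annotated transcript that is not protein-coding or not counted as such (a Sema3b and a Sema4f transcript, Adam15 and the antisense gene BC028777), against 11 of all 191.

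As a group the members' distal regions had values near those of other distal peaks. Their median heights were 1.33 in replicate 1 and 0.968 in replicate 2, against 1.28 and 0.871 for 27441 other distal shared peaks. A footprint of both replicates lay in 44.5% against 46.2%. In the 300 bases around their centres the letters CAGATG occurred in 40.8% against 36.5%, TGACTCA in 11.0% against 7.72%, and GGGCGG in 11.0% against 13.0%.

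Ephb3, Sema4b and Sema6d each had 2 open start regions over 2500 bp apart. These 3 were 4.55% of the members, close to the 3.24% of other genes with 2 or more. At Ephb3 the first had 8.41 in replicate 1 and 3.32 in replicate 2 and the second 2.65 and 2.18. At Sema4b the heights were 6.28 and 3.43 at the first and 1.43 and 1.60 at the second. At Sema6d, whose product binds plexin A1, the order was the other way: 0.797 and 1.25 at the first and 2.18 and 2.01 at the second.

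Genes that work with these ligands and receptors, listed from general knowledge, were open at 59 of 63 promoters (93.7%). The share over all autosomal protein-coding genes was 58.2%. Median heights of the listed genes were 3.39 in replicate 1 and 2.31 in replicate 2. Their groups differed. Among further cues 8 of 11 were open, with medians of 1.19 and 1.495, below the 2.10 and 1.84 of the ligands and receptors. These cues ran from Cxcl12 (0.481 and 0.645), a chemokine, to Rgmb (8.85 and 4.34), a ligand of neogenin, while Draxin and Shh had a promoter peak in replicate 1 only and Flrt1 had none. All 14 co-receptors and adhesion proteins were open, with medians of 2.26 and 1.62, from Lrrc4c (0.824 and 1.47), the receptor of netrin-G1, to Ptprs (10.2 and 5.02), a receptor phosphatase. Of 38 intracellular effectors 37 were open, with medians of 3.60 and 2.42, such as the small GTPase Rac1 (7.24 and 3.68) and the exchange factor Trio (9.16 and 3.89), and only the adaptor Grb7 was not.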

How the data were processed

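The authors deposited, per sample, 2 peak lists, 1 list of footprints and 1 of false discovery rates (q-values) per interval, all on mm10 per the labels; the aligner, callers and thresholds used for this are not given in the sources here. Column 7 of the deposited peak files was read as a signal, the peak height. Every height below 500 steps was a whole multiple of 1 step within 0.05 steps, the step being 0.00535 in replicate 1 and 0.0108 in replicate 2. Deposited FDR intervals were listed only below 0.05, and footprints carried the constant 0.01, so they were used by position. The longer peak list of each sample was used. Shared peaks and footprints of both replicates were intersections of at least 1 bp, and intersections that overlapped were merged. Starts were those of all protein-coding transcripts. Where several shared peaks lay at a promoter, the highest by summed height was used. Genes with several starts had more chance of an open promoter. Genes of the same symbols on X (3) were left out.

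Named genes are, per family, the 3 highest by mean promoter height, the lowest open and those without a shared promoter peak, and over all the leading genes and peaks by distal count, density, height and footprints; others were named after their values were seen. The members, lists, motifs and alternatives were chosen with earlier results of these data known. Values are descriptions, since 1 group of 2 samples allows no test. Alternatives changed the peak list, overlap, window, starts, distances, flank, replicates and chromosomes. Scripts were tested on simulated regions. Python 3.11.15, pandas 2.3.3, pysam 0.24.0 and bedtools 2.31.1 were used.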

Additional observations from a re-analysis of the deposited data

How the results depend on the processing

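Across 60 recomputed values, leaving aside single replicates, 53 stayed within 1.5 times (counts) or within 1 SD of the replicates (medians). Some could not move: no member had another start within 1000 bp, and the footprint count did not use the peak lists. All 11 density values passed under an SD of 2.95, which is larger than the median density of 1.34. For heights the SD was taken between the replicates' medians, whose scaling is not known, so it is not a spread of replicates alone. The open promoter count of 52 ranged from 38 (57.6%, against 44.7% of other genes), when peaks had to overlap by 50% of each, to 55, and with the shorter peak lists it was 41 (62.1%, against 52.3%). Its share stayed above that of the other genes in each alternative.

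The distal peak count of 192 was 63 with the shorter lists, 100 with the higher 50% of each sample's peaks, 116 with 50% overlap and 299 with a 50 kb flank. For the other genes the count of 18965 was 8198, 9907, 12839 and 44130 in the same order. Genes with a distal peak numbered 30 of 66 with the shorter lists (45.5%, against 25.3%). The median promoter height in replicate 1 was 2.29 with a 2000 bp window and 1.83 with the start of the gene record alone.

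With a single replicate the open count was 53 to 60, the distal count 249 to 649, genes with a distal peak 51 to 63, the median density 1.75 to 5.91 and promoters with a footprint 51 to 59, the higher value coming from replicate 1 each time. The other genes' values rose too. With a single replicate 77.3% to 95.5% of members had a distal peak, against 44.3% to 68.0% of other genes. The other genes' median density was 0 to 3.24, and their open share 59.6% to 64.5%. Because the members' densities differ so widely between replicates, the SD is a loose limit: the median density of 1.34 was 0 with the shorter lists, 0.322 with the higher 50% of peaks and 0.565 with 50% overlap. Leaving out Robo3 or joining regions with gaps of up to 300 bp, both chosen after seeing the data, gave 190 and 184 distal peaks. Sites open in few cells may give no peak at this depth, so a promoter without a peak is not shown to be closed. Parental alleles were not separated.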
